A study of Mus musculus with 48 samples.

Results

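The antiviral effectors of the type I interferon program were followed through 48 mouse melanoma tumors as 10 genes chosen by name: Ifit1, Ifit2, Ifit3, Ifit3b, Isg15, Usp18, Rsad2, Mx1, Oasl1 and Oasl2. They are 10 of the 55450 genes in the count table, and all 10 had enough counts to be tested in both experiments, in which 26848 and 30837 genes were tested. Tumors grew from B16-D5 melanoma cells placed under the skin of the flank 8 days before therapy began, in mice obtained at 4 weeks of age and then kept for 2 weeks. The first experiment holds 30 tumors of C57BL/6J wild-type (WT) mice in 10 groups of 3. They were untreated at 0 hours, or untreated, given control IgG or given anti-PD-1 antibody at 6 hours, day 1 and day 3. The second holds 18 tumors on day 7 in 6 groups of 3, from WT and iNOS KO mice that were untreated, given IgG or given anti-PD-1. Each antibody dose was 250 µg and doses were scheduled for days 0 and 3, and whether day 3 tumors were taken after the second dose is not given in the sources used here. iNOS KO hosts lack the inducible nitric oxide synthase encoded by Nos2, whereas the injected melanoma cells came from the same line in both genotypes. The strain background of the iNOS KO mice and the sex of the mice are not given in the sources used here.

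Type I interferons bind the receptor of Ifnar1 and Ifnar2, which activates the kinases Jak1 and Tyk2. The signal reaches IRF9 and its partners, which bind the interferon-stimulated response element in the promoters of antiviral genes. The Ifit proteins bind foreign RNA, Isg15 is a ubiquitin-like modifier that Usp18 removes, Rsad2 (viperin) blocks viral replication, Mx1 is a dynamin-like GTPase and the Oasl proteins belong to the family of oligoadenylate synthetases. In melanoma the same genes report interferon that reaches tumor cells or infiltrating leukocytes, and many of them also respond to interferon-γ and to direct activation of IRF factors. In RNA of whole tumors, fewer cells of a type and less RNA per cell cannot be told apart.

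The promoters are shown because a shared element is the textbook route by which these genes move together. RefSeq's table on GRCm38.p6, the patched form of the mm10 assembly, held 9 promoters for 8 of the 10 genes. The window of 300 bases, from 250 before to 50 after the start site, was searched on both strands for 2 copies of TTTC with any 2 bases between them (GAAA on the other strand), the repeated core of the interferon-stimulated response element. It was present in 5 of the 8 genes, against 1131 of 32851 promoters of the same length (3.44%). The 250 bases before the start of these 5 are printed 5′ to 3′ on the strand of the gene, with the letters of each match in capitals.
Ifit1: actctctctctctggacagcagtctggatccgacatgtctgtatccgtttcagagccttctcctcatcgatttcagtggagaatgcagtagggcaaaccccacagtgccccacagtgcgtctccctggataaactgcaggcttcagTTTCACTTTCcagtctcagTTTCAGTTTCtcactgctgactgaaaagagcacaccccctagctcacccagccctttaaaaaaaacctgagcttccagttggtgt
Ifit3: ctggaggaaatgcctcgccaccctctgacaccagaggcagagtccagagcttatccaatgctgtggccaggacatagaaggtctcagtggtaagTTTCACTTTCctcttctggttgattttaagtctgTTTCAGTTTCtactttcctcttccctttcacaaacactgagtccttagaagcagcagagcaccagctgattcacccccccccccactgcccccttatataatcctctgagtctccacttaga
Ifit3b: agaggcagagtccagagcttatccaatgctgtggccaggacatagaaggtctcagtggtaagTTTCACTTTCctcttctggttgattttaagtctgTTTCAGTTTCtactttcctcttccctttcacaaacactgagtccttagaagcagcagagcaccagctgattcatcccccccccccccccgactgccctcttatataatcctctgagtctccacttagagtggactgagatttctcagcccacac
Isg15: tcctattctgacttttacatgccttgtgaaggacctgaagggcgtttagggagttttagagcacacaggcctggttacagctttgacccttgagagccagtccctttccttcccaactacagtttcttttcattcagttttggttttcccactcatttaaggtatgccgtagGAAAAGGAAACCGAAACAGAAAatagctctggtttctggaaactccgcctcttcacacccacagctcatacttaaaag
Rsad2: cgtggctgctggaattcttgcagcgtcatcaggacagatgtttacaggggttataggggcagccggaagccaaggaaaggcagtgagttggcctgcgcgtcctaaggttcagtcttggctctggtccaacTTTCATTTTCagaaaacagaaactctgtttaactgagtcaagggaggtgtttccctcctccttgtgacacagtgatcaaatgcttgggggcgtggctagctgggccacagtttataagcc
The stretches lie at chr19:34640639-34640888 (plus strand) for Ifit1, chr19:34583279-34583528 (plus) for Ifit3, chr19:34607707-34607956 (plus) for Ifit3b, chr4:156200819-156201068 (minus) for Isg15 and chr12:26456453-26456702 (minus) for Rsad2. Isg15 held 3 matches that overlap each other, starting 78, 72 and 66 bases before the start site. Ifit1, Ifit3 and Ifit3b held 2 each, and Rsad2 held 1. Ifit3 and Ifit3b carry their pair of matches at the same spacing, 156 and 122 bases before the start of Ifit3 and 188 and 154 before that of Ifit3b. These letters were not in the windows of Ifit2, Oasl1 and Oasl2, and a match describes the sequence without showing that a factor binds there.

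**Figure D1:**
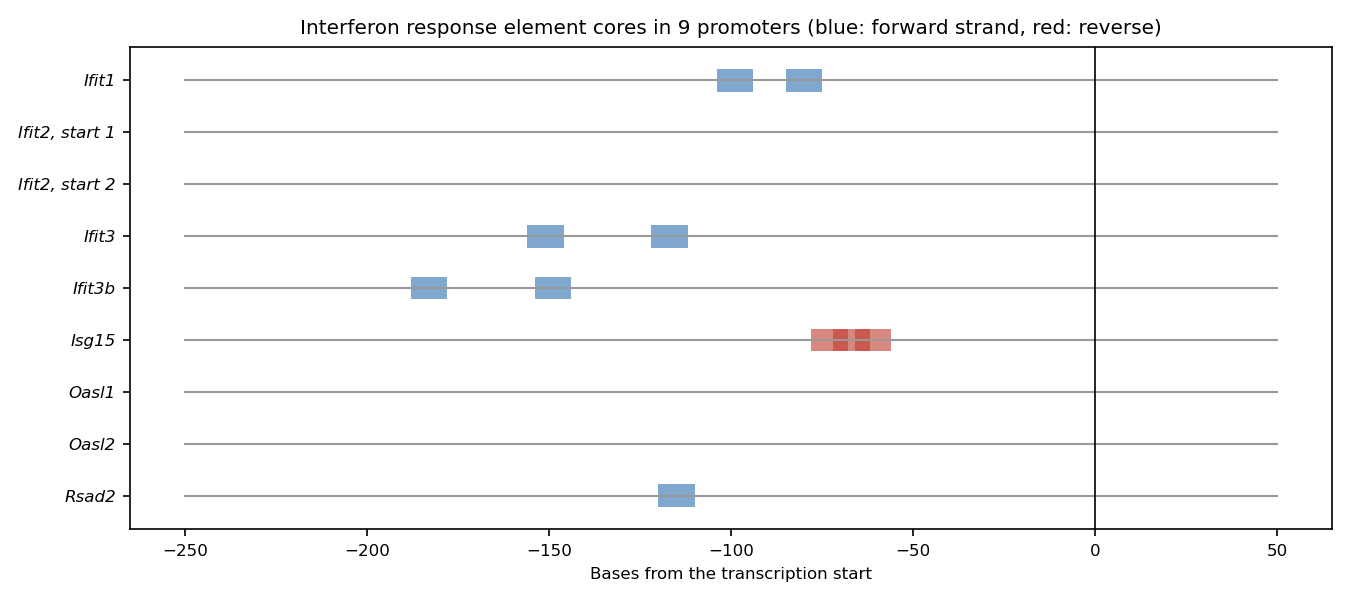
Positions of the searched element in the RefSeq promoters of the 8 member genes that the table holds, as bases relative to the start site on the horizontal axis, blue on the forward and red on the reverse strand of the gene, with 2 start sites for Ifit2. The 5 genes with a match carry it between 188 and 66 bases before the start, and Isg15 has 3 overlapping matches.

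In the annotation of the count table (GENCODE vM21 on mm10), the 4 Ifit genes lie near each other on the plus strand of chromosome 19. Ifit2 runs from 34550694 to 34576419 and Ifit3 from 34583531 to 34588731. Ifit3b runs from 34607970 to 34613401 and Ifit1 from 34640871 to 34650009. Oasl2 (114896936 to 114912234) and Oasl1 (114923240 to 114937915) are neighbors on chromosome 5. Isg15 lies on chromosome 4 (156199424 to 156200818), Rsad2 on chromosome 12 (26442746 to 26456452), Mx1 on chromosome 16 (97447035 to 97462907) and Usp18 on chromosome 6 (121245906 to 121270917). Of all 100-base stretches of its transcripts, Ifit3 shared 31.7% with Ifit3b and Ifit3b shared 27.4% with Ifit3, so the split of counts between this pair is uncertain. Ifit1 shared 3.3% with Ifit1bl2, Mx1 shared 0.9% with Mx2, and the other 6 members shared none. Exons of Oasl1 overlap an opposite-strand gene over 38 of 2608 bases and those of Usp18 over 124 of 2790 bases, and the sources used here do not say whether counting used strand.

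The first experiment had between 25574203 and 47687872 counts per library (median 37544682) and the second between 11625862 and 40959309. In the second, WT anti-PD-1 tumors 3 and 4 and untreated iNOS KO tumor 1 had between 916.9 and 3715 counts per 1000000 of the library (CPM) on 1504 genes of olfactory, vomeronasal and taste receptors, against 12.3 to 232.5 CPM in the other 15. The same rate per kb of exon would account for up to 40.2% of the Ifit3b counts and 29.9% of the Mx1 counts in WT anti-PD-1 tumor 3, for at most 14.3% of the counts of the other 8 members in the 3 libraries, and for at most 1.65% in the other 15. The level of Nos2 ran from 1.15 to 5.92 CPM (median 4.21) over the 9 tumors with KO in the title. Over those of the WT label it ran from 1.40 to 7.28 CPM (median 3.28), so Nos2 does not check the genotype. Melanoma markers summed to between 9306 and 20440 CPM in every library and leukocyte markers to between 35.2 and 555.2 CPM, while muscle and keratinocyte markers reached 4953 and 3340 CPM in 1 tumor at 0 hours. Markers of neutrophils summed to at most 24.7 CPM and those of erythrocytes to at most 3.38 CPM. The plasmacytoid dendritic cell markers Siglech, Ccr9 and the interferon-stimulated Bst2 summed to between 313.9 and 784.3 CPM. Most of that sum was Bst2, so it does not measure how many of these cells were present.

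Every member had at least 39 counts in every tumor. Per kb of exon, which allows genes to be compared, Isg15 was the highest of the 10 in all 16 groups, with a median level of 105.8 CPM per kb in the first experiment and 101.1 in the second. Oasl2, at 25.1 and 13.8, and Ifit1, at 21.8 and 14.4 CPM per kb, came next among the members. Ifit3b, at 2.99 and 1.85, and Mx1, at 4.04 and 2.08 CPM per kb, were lowest. C57BL/6 mice carry a deletion in Mx1, so its transcript is not known to make a working protein in this strain. Levels from here on are CPM on the adjusted library total, not divided by length, and compare tumors for 1 gene.

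**Figure D2:**
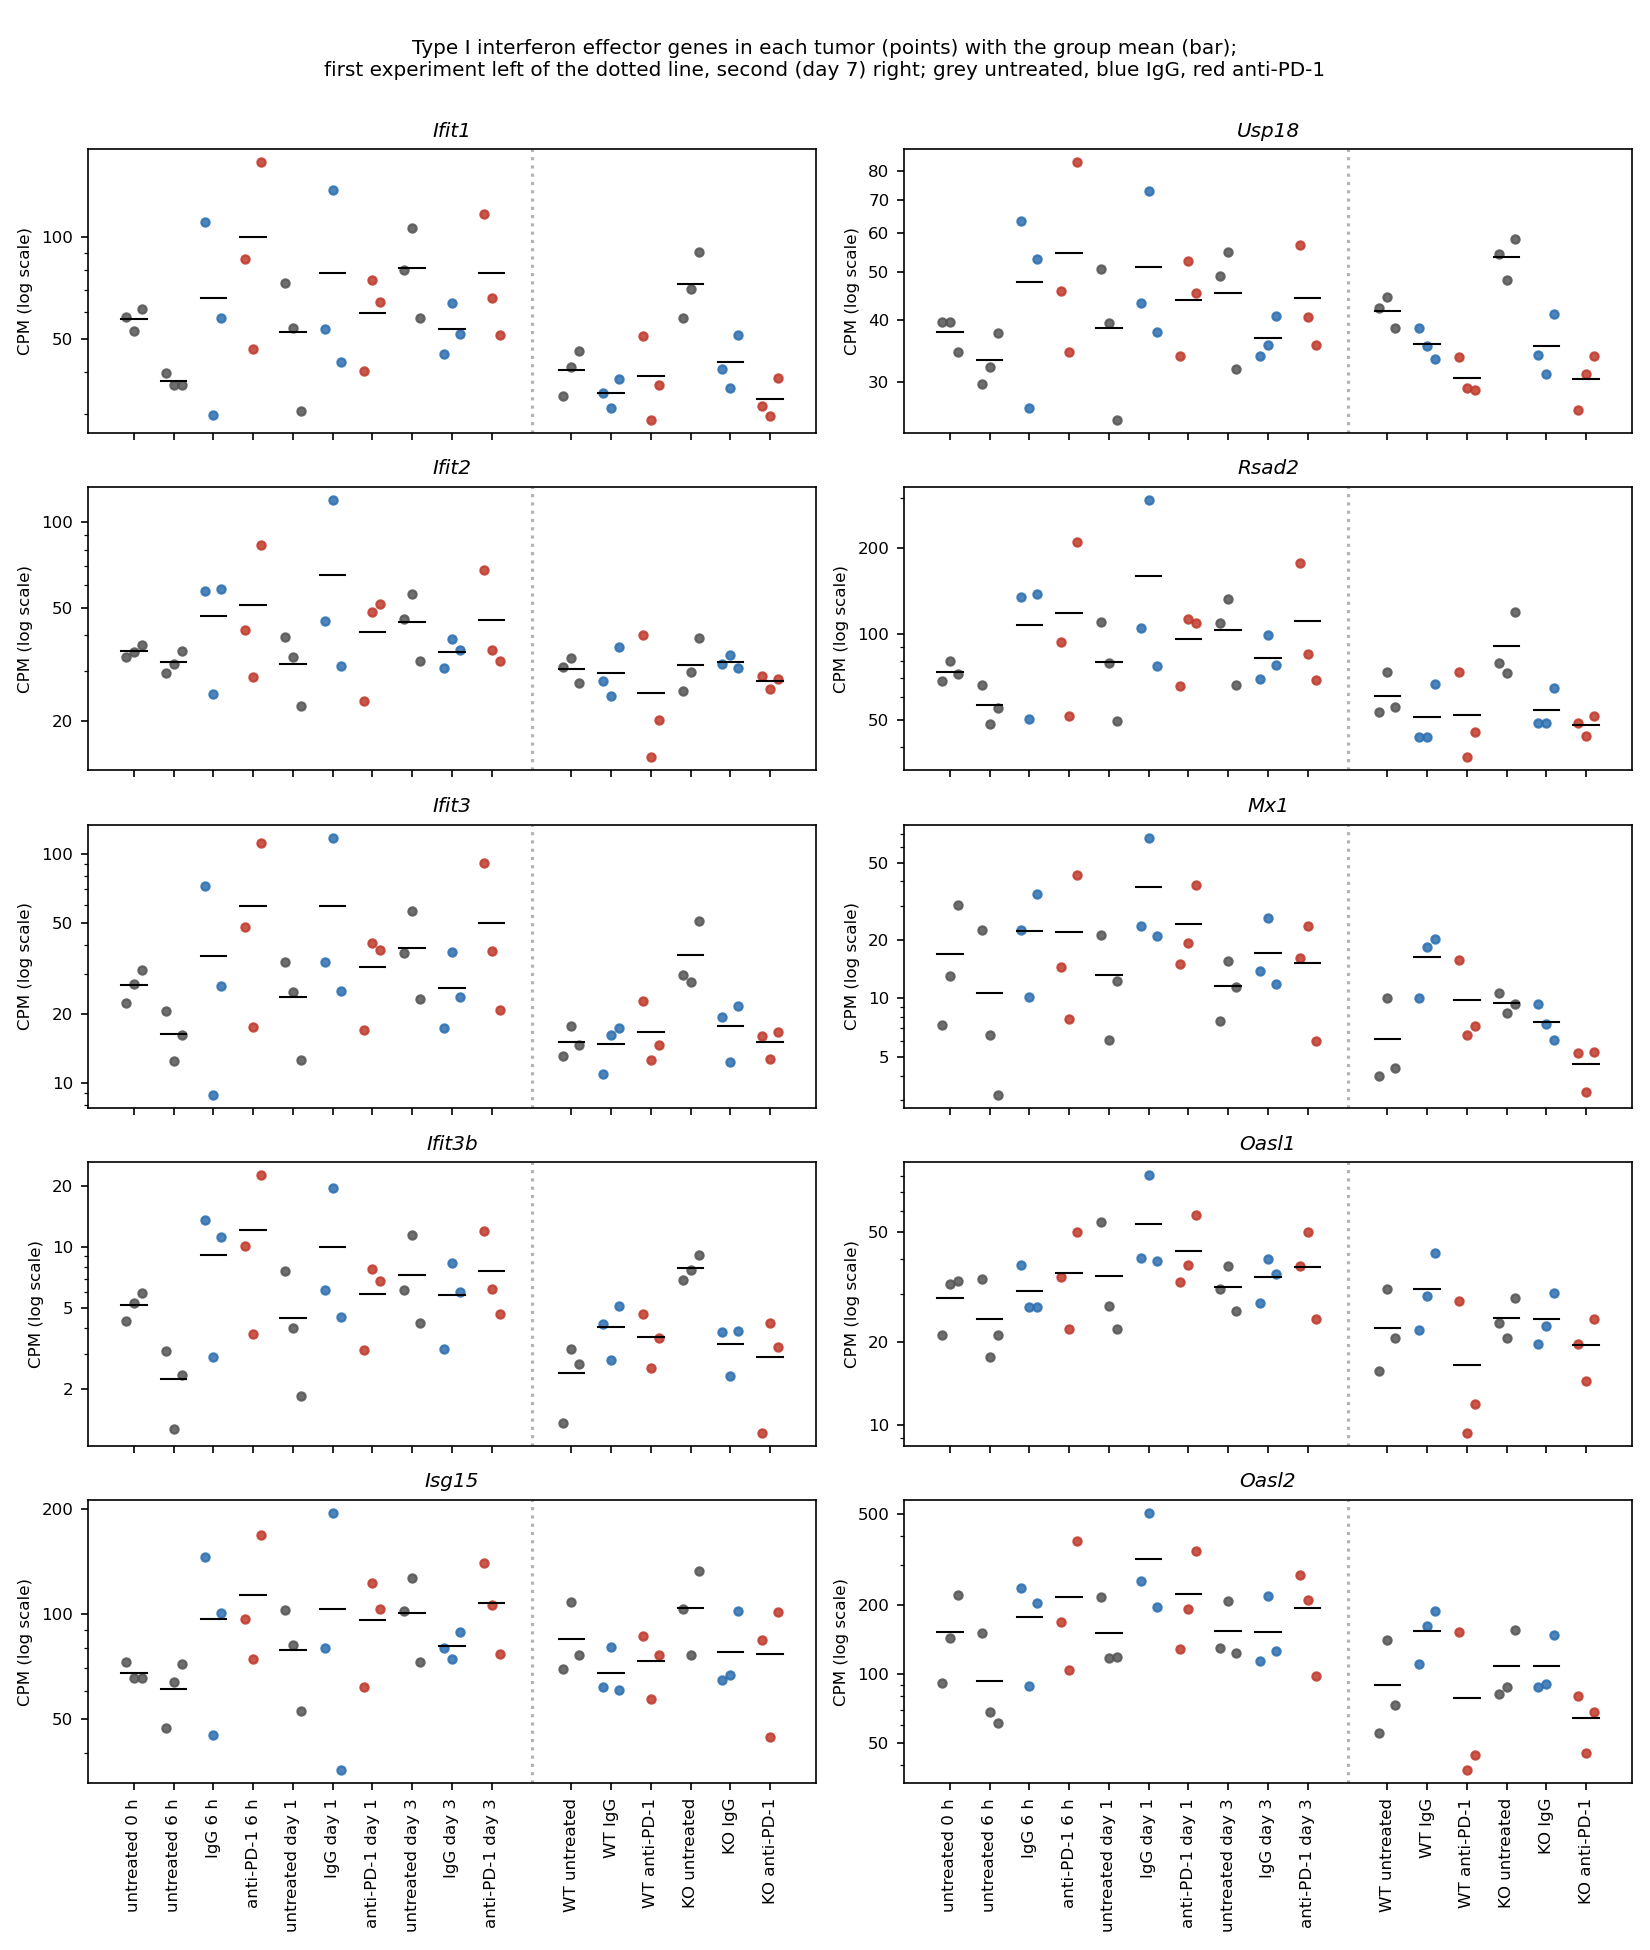
CPM of the 10 members on a log axis by group, with 1 point per tumor, a bar at the group mean, and color for untreated (grey), IgG (blue) and anti-PD-1 (red). IgG tumor 4 on day 1 is the highest of the first experiment for 7 members and anti-PD-1 tumor 5 at 6 hours for 3, and in the second experiment untreated iNOS KO tumors have the highest group mean for 6 members.

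In the first experiment the members varied between tumors of a group more than the median gene did. The highest tumor exceeded the lowest by 21.2-fold for Mx1, 17.7-fold for Ifit3b and 13.4-fold for Ifit3, and by 3.32-fold for Usp18, the member with the smallest range. The standard deviation between tumors of the same group, on the log2 scale of CPM plus 0.5, was 0.63 at the median of the 10, against 0.37 for all genes tested and 0.27 for the 9605 genes in the members' range of expression. It was largest for Mx1 (0.93) and Ifit3 (0.91) and smallest for Usp18 (0.42). In the second experiment the median was 0.38, against 0.43 for all genes and 0.25 for the 9698 genes in the members' range, and the value for all genes was 0.26 without the 3 libraries that had high receptor counts.

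Of the Ifit genes, Ifit3b had 4.36, 5.33 and 5.96 CPM at 0 hours, and at 6 hours it had 3.11, 1.27 and 2.36 CPM in untreated, 13.5, 2.88 and 11.2 CPM in IgG and 10.2, 3.73 and 22.5 CPM in anti-PD-1 tumors. Ifit3 had 20.5, 12.5 and 16.1 CPM in the untreated, 72.3, 8.82 and 26.5 CPM in the IgG and 48, 17.6 and 112.0 CPM in those given anti-PD-1 at that time. Each anti-PD-1 tumor was above each untreated tumor for Ifit3b, and for Ifit3 the lowest anti-PD-1 tumor lay inside the untreated range. Ifit1, which binds RNA with a foreign cap, had 39.6, 36.5 and 36.6 CPM in untreated, 111.4, 29.7 and 57.9 CPM in IgG and 86.6, 46.8 and 167.1 CPM in anti-PD-1 tumors at 6 hours. The IgG tumors of Ifit1 spanned the untreated ones, and anti-PD-1 tumors were all above them. Ifit2, whose protein promotes apoptosis as well as binding RNA, reached 120.0 CPM in IgG tumor 4 on day 1, where its other IgG tumors had 45.1 and 31.2 CPM, the untreated ones 39.4, 33.6 and 22.6 CPM and the anti-PD-1 ones 23.5, 48.5 and 51.7 CPM. The 3 groups of day 1 overlapped for Ifit2.

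Isg15 had 47.1, 63.7 and 72.0 CPM in untreated, 145.6, 44.9 and 101.0 CPM in IgG and 96.8, 74.4 and 168.4 CPM in anti-PD-1 tumors at 6 hours. Usp18, the protease that removes Isg15 and restrains signaling at the receptor, had 29.7, 32.2 and 37.7 CPM, 63.4, 26.6 and 53.1 CPM and 45.9, 34.5 and 83.5 CPM in the same 3 groups. For Isg15 the anti-PD-1 tumors cleared the untreated ones, for Usp18 anti-PD-1 tumor 3 lay among them, and for both the IgG tumors overlapped both other groups. By day 3 Isg15 lay between 76.8 and 140.7 CPM after anti-PD-1, between 74.2 and 88.8 CPM after IgG and between 73.1 and 127.2 CPM without treatment.

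Rsad2, Mx1 and both Oasl genes reached their highest level in a single tumor, IgG tumor 4 on day 1. Rsad2 had 295.5 CPM there, against 105.1 and 77.0 CPM in the other IgG tumors, 110.0, 78.9 and 49.4 CPM in untreated and 65.7, 112.5 and 109.4 CPM in anti-PD-1 tumors of day 1. Mx1 had 67.3 CPM there, against 23.6 and 21.02 CPM after IgG, 21.3, 6.11 and 12.3 CPM without treatment and 15, 19.3 and 38.5 CPM after anti-PD-1. Oasl2, which keeps synthetase activity, had 505.1 CPM in that tumor, against 254.9 and 196.4 CPM in the other IgG tumors, 216.4, 117.3 and 118.8 CPM in untreated and 129.0, 193.3 and 345.9 CPM in anti-PD-1 tumors. Oasl1, which lacks that activity and restrains translation of Irf7, had 80.6 CPM there and between 22.4 and 57.8 CPM in the other 8 tumors of day 1. Apart from that tumor the IgG group of day 1 overlapped both others for Rsad2 and Oasl2.

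The 4 tumors with the highest mean log2 level over the 10 members in the first experiment were IgG tumor 4 on day 1 (6.87), anti-PD-1 tumor 5 at 6 hours (6.63), anti-PD-1 tumor 3 on day 3 (6.10) and IgG tumor 1 at 6 hours (6.06). They fell in 4 different groups, 2 with each antibody. Genes of the interferon-γ response summed to 5015, 3791, 2772 and 2045 CPM in these 4 tumors, and to at most 1697 CPM in the other 26. Leukocyte markers summed to 377.2, 250.9, 175.6 and 132.7 CPM, which lies within the 78.5 to 555.2 CPM of the other tumors. Muscle markers were at 2.08 and 3.13 CPM in the day 1 and day 3 tumors of the 4 and at 561.4 and 226.9 CPM in those of 6 hours, and the part of each cell type in the level of the members was not tested. IgG tumor 6 at 6 hours was the seventh in order, with 138.5 CPM of Rsad2 and 58.1 CPM of Ifit2, and its interferon-γ response sum was 415.9 CPM.

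At 6 hours the question was whether anti-PD-1 raised interferon signaling early. Against untreated tumors all 10 members had a positive log2 fold change, from 0.56 for Oasl1 to 2.43 for Ifit3b, with a median of 1.06 against -0.02 for all genes tested. The median was 0.43 without anti-PD-1 tumor 5. Of the 10, 0 passed the threshold of an adjusted p under 0.05, as did 0% of all genes (edgeR quasi-likelihood test, Benjamini-Hochberg). At an unadjusted p under 0.05 there were 6 members, all higher, where 2.13% of all genes were, and the Wald test of DESeq2, which called 0 members in all comparisons of the first experiment, called 7 other genes here. Without the filter on low counts edgeR called 3 members higher (0.152% of all genes). Ifit3b had the smallest p-value, at 2.43 on the log2 scale (standard error 0.68, adjusted p = 1 from edgeR). Isg15, Ifit3b and Ifit1 did not overlap between the groups, in which anti-PD-1 was higher for 2.67% of all genes.

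The comparison with IgG, the control for the antibody, gave smaller differences. Against IgG, 9 of 10 members were higher after anti-PD-1 at 6 hours, from -0.03 for Mx1 to 0.72 for Ifit3, with a median of 0.22 (all genes -0.07), and 0 passed the test (0% of all genes) or an unadjusted p under 0.05. The smallest p belonged to Ifit1, with 0.60 (standard error 0.46, adjusted p = 1 from edgeR). IgG itself stood above untreated tumors by a median of 0.87, from 0.33 to 2.03, and again 0 members and 0% of all genes passed, with Ifit3b at 2.03 (standard error 0.67, adjusted p = 0.760 from edgeR), the 1 member with an unadjusted p under 0.05 (3.53% of all genes, higher). The median of IgG against untreated tumors was 0.31 without IgG tumor 1. These 3 comparisons share their groups of tumors. The median against IgG was -0.31 without anti-PD-1 tumor 5, -0.06 without IgG tumor 2, 0.51 without IgG tumor 1 and -0.19 with a replicate block.

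On day 1 the IgG tumors had the higher values. All 10 members were lower after anti-PD-1 than after IgG, from -0.11 for Isg15 to -0.88 for Ifit3, with a median of -0.57 (all genes -0.01). Of the 10 members 0 passed the test (0% of all genes), and 0 had an unadjusted p under 0.05. The smallest p was that of Ifit2, at -0.66 (standard error 0.42, adjusted p = 1 from edgeR). IgG tumors of day 1 exceeded untreated ones by a median of 1.02, from 0.39 for Isg15 to 1.496 for Mx1, with 4 members at an unadjusted p under 0.05 (4.01% of all genes, higher), 0 called (0% of all genes) and Ifit2 first at 1.04 (standard error 0.42, adjusted p = 0.859 from edgeR). Without IgG tumor 4 that median was 0.23, and the median of anti-PD-1 against IgG was then 0.12. Anti-PD-1 stood above untreated tumors of day 1 by a median of 0.34, with 0 members called (0% of all genes) and 0 at an unadjusted p under 0.05, and Mx1 came first at 0.88 (standard error 0.70, adjusted p = 1 from edgeR). That median was 0.07 without untreated tumor 6.

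On day 3, 9 of 10 members were higher after anti-PD-1 than after IgG, from -0.18 for Mx1 to 0.93 for Ifit3 (median 0.38, all genes 0.00), and 0 passed the test (0% of all genes) or an unadjusted p under 0.05. Ifit3 had the smallest p (log2 fold change 0.93, standard error 0.67, adjusted p = 1 from edgeR). Against untreated tumors of day 3 the median was 0.10 after anti-PD-1, with Oasl1 first at 0.24 (standard error 0.35, adjusted p = 1 from edgeR), and -0.32 after IgG, with Ifit1 first at -0.60 (standard error 0.46, adjusted p = 1 from edgeR). In each of these 0 members were called (0% of all genes) and 0 had an unadjusted p under 0.05. Without anti-PD-1 tumor 3 the median was 0.03 against IgG and -0.32 against untreated tumors, without untreated tumor 4 it was -0.11 against the latter, and without untreated tumor 2 the median of IgG against untreated tumors was -0.10. Whether the difference between anti-PD-1 and IgG changed with time was tested as an interaction. From 6 hours to day 1 it shifted by a median of -0.81, with all 10 negative, and from 6 hours to day 3 by 0.06. Of the 10 members, 0 passed in either interaction (0% of all genes) and 0 had an unadjusted p under 0.05. The largest of the first, Ifit3 at -1.60, also had the smallest p (standard error 0.94, adjusted p = 0.9999 from edgeR), and Rsad2 came first in the second at 0.29 (standard error 0.67, adjusted p = 1 from edgeR). The median of the first was -0.10 without IgG tumor 4 of day 1 and -0.19 without anti-PD-1 tumor 5 of 6 hours, and with each tumor left out in turn that of the second ran from -0.26 to 0.74.

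Untreated tumors alone also differed in level. At 6 hours all 10 members were lower than at 0 hours, from -0.13 for Ifit2 to -1.22 for Ifit3b (median -0.50, all genes -0.02), and untreated tumors at 6 hours were the lowest of the 10 groups for 9 members. Ifit1 had 58.0, 52.8 and 61.5 CPM at 0 hours, above the 39.6, 36.5 and 36.6 CPM at 6 hours. Rsad2, Ifit3, Ifit3b and Ifit1 did not overlap between the groups, which 3.56% of all genes did not in that direction. Of the 10 members 0 passed the test (0% of all genes), 0 had an unadjusted p under 0.05, and Ifit3b came first (standard error 0.66, adjusted p = 0.725 from edgeR). Muscle markers summed to between 638.9 and 4953 CPM at 0 hours and between 41.9 and 811.2 CPM in untreated tumors at 6 hours, and the part of this in the difference was not tested. Against 0 hours the median was -0.07 on day 1, with Oasl1 first at 0.26 (standard error 0.35, adjusted p = 1 from edgeR), and 0.41 on day 3, with Isg15 first at 0.57 (standard error 0.44, adjusted p = 0.878 from edgeR) and without overlap (3.4% of all genes, higher), and 0 members were called (0% of all genes) or had an unadjusted p under 0.05 in either.

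Within an antibody the levels were also compared over time. After anti-PD-1 the median was -0.31 from 6 hours to day 1, with Ifit1 first at -0.74 (standard error 0.46, adjusted p = 0.678 from edgeR), and -0.21 from 6 hours to day 3, with Ifit3b first at -0.67 (standard error 0.64, adjusted p = 0.9999 from edgeR). After IgG it was 0.53 from 6 hours to day 1, with all 10 members higher on day 1 and Oasl1 first at 0.81 (standard error 0.36, adjusted p = 0.468 from edgeR), and -0.38 from 6 hours to day 3, with Usp18 first at -0.37 (standard error 0.32, adjusted p = 0.971 from edgeR). Without anti-PD-1 tumor 5 of 6 hours the medians after anti-PD-1 were 0.20 and 0.38, and without anti-PD-1 tumor 5 of day 3 the second was 0.07. Without IgG tumor 4 of day 1 the median from 6 hours to day 1 after IgG was -0.26, and without IgG tumor 1 of 6 hours that to day 3 was -0.02. In these 4 comparisons 0 members were called (0% of all genes in each), and Oasl1 from 6 hours to day 1 after IgG was the 1 member with an unadjusted p under 0.05 (5.11% of all genes, higher). Its IgG tumors had 37.9, 26.8 and 26.8 CPM at 6 hours and 40.5, 80.6 and 39.3 CPM on day 1, and the groups did not overlap, as those of 6.4% of all genes did not in that direction.

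**Figure D3:**
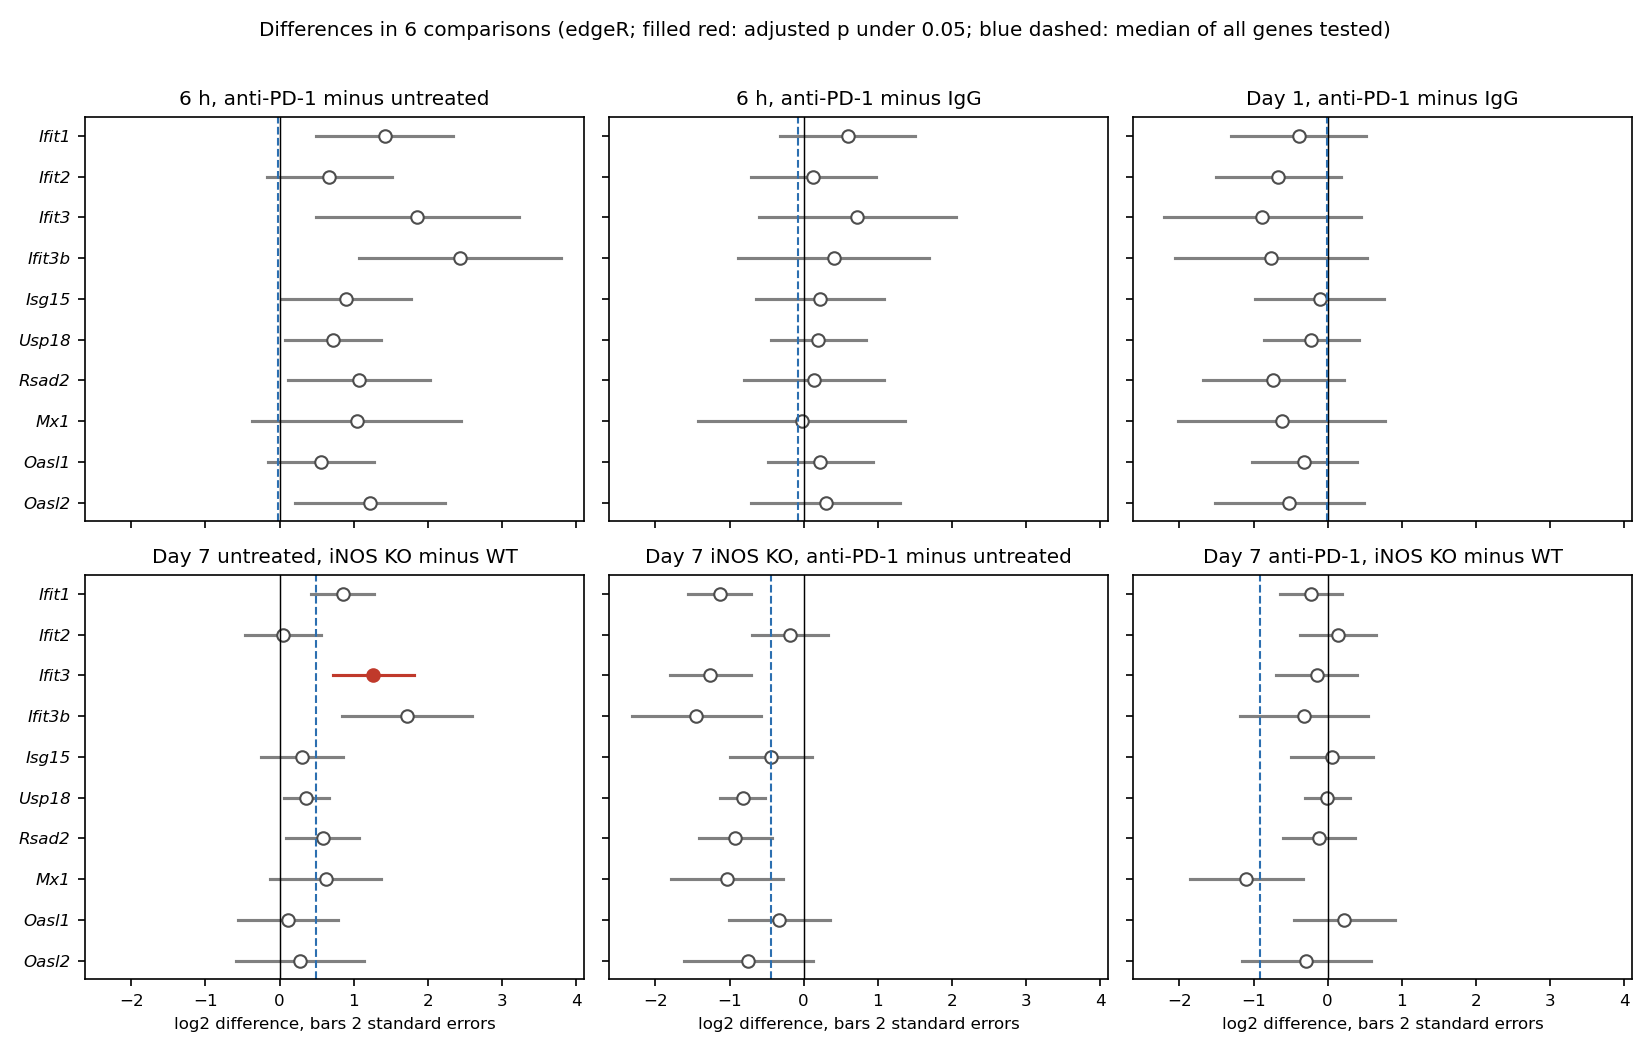
Log2 differences of the 10 members in 6 comparisons, with bars of 2 standard errors from the edgeR fit, filled red where the adjusted p is under 0.05, and a blue dashed line at the median of all tested genes. All 10 points lie above 0 at 6 hours against untreated tumors (median 1.06), only Ifit3 is red (untreated iNOS KO minus WT), and all 10 lie below 0 in iNOS KO mice after anti-PD-1 (median -0.87).

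On day 7 Ifit3 rose in untreated tumors of iNOS KO mice against those of WT mice, and Ifit1, Ifit3b and Usp18 had higher levels in every one of these tumors without passing the test. Ifit3 had 29.6, 27.7 and 51.1 CPM in untreated iNOS KO tumors and 13.03, 17.6 and 14.6 CPM in untreated WT tumors, and the groups did not overlap. Ifit1 had 57.6, 70.3 and 90.5 CPM in iNOS KO and 34.04, 41.3 and 46 CPM in WT tumors. Ifit3b had 6.86, 7.69 and 9.13 CPM in iNOS KO and 1.37, 3.16 and 2.66 CPM in WT tumors. Every iNOS KO tumor was above every WT tumor for these 3 genes and for Usp18, which had 54.5, 48.2 and 58.3 CPM against 42.3, 44.5 and 38.5 CPM. Ifit2, their neighbor on chromosome 19, had 25.6, 29.7 and 39.2 CPM in iNOS KO and 31.04, 33.3 and 27.2 CPM in WT tumors, which overlapped.

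Of the 10 members 1 was called, Ifit3, which rose in untreated iNOS KO tumors by 1.26 on the log2 scale (standard error 0.27, adjusted p = 0.0380 from the edgeR quasi-likelihood test with Benjamini-Hochberg adjustment). Among all genes 0.584% were called higher. Ifit1 (0.85, adjusted p = 0.0807) and Ifit3b (1.72, adjusted p = 0.0919 from edgeR) came closest among the rest, and DESeq2 called 3 members (3.84% of all genes it gave an adjusted p, higher). All 10 had a positive difference, with a median of 0.47 against 0.49 for all genes tested, 5 had an unadjusted p under 0.05 (13.1% of all genes, higher) and 4 did not overlap, as 9.73% of all genes did not in that direction. With the replicate number as a block Ifit3 had 1.15 (adjusted p = 0.121), and with any 1 of 4 tumors left out it was no longer called (adjusted p = 0.0958 to 0.264 without WT tumor 1, 2 or 3 or iNOS KO tumor 4). Without the 3 libraries that had high receptor counts, an alternative chosen after seeing the data, 3 members were called (1.16% of all genes) and Ifit3 had 1.39 (adjusted p = 0.0034 from edgeR). The median of the members was then 0.49 and that of all genes 0.00. Genes of the interferon-γ response summed to 732.4, 547.1 and 1474 CPM in the iNOS KO and to 304.8, 315.6 and 278.2 CPM in the WT tumors, and leukocyte markers to 88.8, 60.2 and 96.8 CPM and to 72.8, 166.0 and 84.97 CPM.

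In iNOS KO mice 0 members passed the test after either antibody against no treatment, although all 10 had a negative difference after anti-PD-1 and 8 after IgG. After anti-PD-1 Ifit1 had 31.7, 29.6 and 38.3 CPM, Usp18 had 26.3, 31.2 and 33.8 CPM and Ifit3 had 16.1, 12.6 and 16.6 CPM, each below all 3 untreated iNOS KO tumors. All 10 members were lower, from -0.19 for Ifit2 to -1.45 for Ifit3b, with a median of -0.87 against -0.44 for all genes. Of the 10 members 0 passed the test, where 0.0422% of all genes were called lower, 6 had an unadjusted p under 0.05 (14.4% of all genes, lower) and DESeq2 called 5 members (3.14% of all genes it gave an adjusted p, lower). Usp18 had the smallest p (-0.82, standard error 0.15, adjusted p = 0.0552 from edgeR). Between anti-PD-1 and untreated tumors 7 members did not overlap, Oasl2, Usp18, Rsad2, Mx1, Ifit3, Ifit3b and Ifit1, as 8.46% of all genes did not in that direction. Without the 3 libraries with high receptor counts 4 members were called (0.418% of all genes, lower), with a median of -0.93 against 0.00 for all genes.

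After IgG the iNOS KO tumors had 40.7, 35.9 and 51.3 CPM of Ifit1, 33.9, 31.1 and 41.2 CPM of Usp18 and 19.3, 12.4 and 21.6 CPM of Ifit3. These 3 genes, Rsad2 and Ifit3b lay below all untreated iNOS KO tumors, 5 members against 9.53% of all genes. Of the 10, 8 were lower and Ifit2 and Oasl2 were not (0.03 and 0.00), the median was -0.51 (all genes -0.45), 0 were called where 0.188% of all genes were called lower, 5 had an unadjusted p under 0.05 (12.7% of all genes, lower), DESeq2 called 4 (2.89% of all genes it gave an adjusted p, lower), and Usp18 came first with -0.60 (standard error 0.15, adjusted p = 0.117 from edgeR). Both comparisons share the untreated iNOS KO tumors, which are also those of the comparison with WT. Anti-PD-1 against IgG in iNOS KO mice gave a median of -0.23 with all 10 lower, 0 called (0% of all genes), 0 at an unadjusted p under 0.05, and Mx1 first at -0.72 (standard error 0.38, adjusted p = 1 from edgeR).

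Between genotypes given the same antibody the median differences of the main fit were smaller in size than between the untreated groups. For anti-PD-1 this order did not hold without the 3 libraries that had high receptor counts. The median of all genes also differed between these comparisons. After anti-PD-1 the median difference of iNOS KO from WT tumors was -0.13, where all genes had -0.91, and 0 members were called (0% of all genes) by edgeR and 1 by DESeq2 (10.7% of all genes it gave an adjusted p, lower). Without WT tumor 2 the median was 0.14. Mx1, the 1 member with an unadjusted p under 0.05 (26.6% of all genes, lower), had 5.22, 3.30 and 5.32 CPM in iNOS KO and 15.7, 6.49 and 7.17 CPM in WT tumors. Its groups did not overlap, as those of 17% of all genes did not with iNOS KO lower, and its log2 fold change was -1.09 (standard error 0.38, adjusted p = 0.129 from edgeR). WT tumors 3 and 4, at 6.49 and 7.17 CPM of Mx1, had high receptor counts. The part of their Mx1 counts that this rate would account for was not taken off before the groups were compared. Among all 18 tumors, WT anti-PD-1 tumor 3 had the lowest level of Ifit1, Ifit2, Rsad2, Oasl1 and Oasl2, and tumor 2 of that group had the highest level of Ifit2. Without the libraries that had high receptor counts, WT anti-PD-1 tumors 3 and 4 among them, the median of the members was -0.58 and that of all genes 0.00. After IgG the median was 0.03, with 0 called (0% of all genes), and Mx1 again first and alone at an unadjusted p under 0.05 (4.12% of all genes, lower) at -1.10 (standard error 0.38, adjusted p = 0.626 from edgeR), from 9.35, 7.37 and 6.07 CPM in iNOS KO and 10.01, 18.5 and 20.2 CPM in WT tumors.

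In WT mice Mx1, Oasl1 and Oasl2 had their highest group after IgG. Oasl2 had 110.9, 161.7 and 189.3 CPM there, against 55.3, 141.5 and 73.0 CPM in untreated and 153.2, 38.03 and 44.6 CPM in anti-PD-1 tumors. The 3 groups overlapped for Oasl2. IgG against untreated gave a median of -0.03 over the 10, 0 called (0% of all genes), 1 at an unadjusted p under 0.05 (5.54% of all genes, higher), which was Mx1 at 1.40 (standard error 0.38, adjusted p = 0.565 from edgeR). Anti-PD-1 against IgG gave a median of -0.19 where all genes had 0.68, 0 called (0% of all genes), 2 at an unadjusted p under 0.05 (5.75% of all genes, lower) and Oasl1 first at -0.91 (standard error 0.34, adjusted p = 0.305 from edgeR). Anti-PD-1 against untreated gave -0.20 where all genes had 0.96, 0 called (0% of all genes), 1 at an unadjusted p under 0.05 (7.17% of all genes, lower), which was Usp18 at -0.45 (standard error 0.15, adjusted p = 0.142 from edgeR). Without the 3 libraries, which leaves 1 WT anti-PD-1 tumor whose variation is assumed to equal that of the other groups, both medians turned positive, 0.31 against IgG (all genes -0.03) and 0.35 against untreated tumors (all genes 0.00). Without WT anti-PD-1 tumor 3 alone they were 0.09 and 0.06, and without WT IgG tumor 3 the first was 0.03. Leukocyte markers summed to 136.5, 160.4 and 524.6 CPM after IgG in WT mice, against 72.8, 166.0 and 84.97 CPM without treatment.

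In the comparisons of day 7 for which no count by DESeq2 is given, it called 0 members. In WT anti-PD-1 against IgG it gave 6 of the 10 no adjusted p. Whether anti-PD-1 against IgG differed between genotypes was tested as an interaction, which gave a median of -0.02, 0 members called (0% of all genes) and 0 at an unadjusted p under 0.05, and Ifit1 first at -0.53 (standard error 0.30, adjusted p = 0.683 from edgeR). A further interaction, chosen after seeing the data, set the difference between genotypes without treatment against that after anti-PD-1. It called 4 members higher, Ifit3 (1.41, standard error 0.38, adjusted p = 0.0333), Ifit1 (1.08, standard error 0.30, adjusted p = 0.0340), Ifit3b (2.04, standard error 0.61, adjusted p = 0.0398) and Mx1 (1.71, standard error 0.53, adjusted p = 0.0414 from edgeR). Among all genes 19.6% were called higher, and the median of the members was 0.63 against 1.36 for all genes. DESeq2 called 5 members in it (21.3% of all genes it gave an adjusted p, higher). With a replicate block edgeR called 0 members (4.17% of all genes, higher), and with the receptor counts as a covariate 0 (0% of all genes).

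The genes above and beside the members in the pathway were read from fixed lists. Of the 18 type I interferon genes, 1 was tested in the first experiment and 3 in the second, and the highest count of any of them in any library was 24. Ifnb1 had at most 7 counts and at most 0.197 CPM, near the limit of detection, 3 counts or 0.0688 to 0.197 CPM, while the 10 effectors had between 39 and 20849 counts per tumor. The 18 ligands together summed to 9.837 and 4.015 CPM in WT anti-PD-1 tumors 3 and 4 and to 2.573 CPM in untreated iNOS KO tumor 1, the libraries with high receptor counts. In every other library they summed to at most 1.169 CPM. Of the 9 genes of the receptor and its signaling, 4 were higher in untreated iNOS KO than in WT tumors (median -0.01) and 0 were called. Stat2 had 0.44, Irf7 0.26, Irf9 0.13, Ifnar2 -0.07 and Ifnar1 -0.13 on the log2 scale. Of the 4 genes of the conjugation of Isg15, all 4 were higher (median 0.60), led by the conjugating enzyme Ube2l6 (1.07, adjusted p = 0.113 from edgeR), and 0 were called. Of 32 other antiviral interferon-stimulated genes 25 were higher (median 0.30) and 0 were called. The medians of this list and of the receptor list lay below the median of all genes given above for this comparison. The median of the conjugation list lay above it, and 0.584% of all genes were called higher.

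Interferon-γ, a type II interferon of lymphocytes, acts through a receptor of its own, and 14 genes of its response were read in the same way. All 14 were higher in untreated iNOS KO than in untreated WT tumors of day 7, with a median of 2.31, and 8 were called (0.584% of all genes). They include Cxcl9, a chemokine induced by interferon-γ, at 3.84 (standard error 0.64, adjusted p = 0.0097), and the transcription factor Irf1 at 1.48 (standard error 0.33, adjusted p = 0.0410 from edgeR). The other 6 were Gbp2, Gbp4, Igtp, Iigp1, Psmb9 and Cd274. At 6 hours all 13 tested genes of this list and all 32 other antiviral genes were higher after anti-PD-1 than in untreated tumors. Their medians were 2.82 and 0.76, and 0 of either were called, as were 0% of all genes. By the interferon-γ sum, anti-PD-1 tumors 1 and 5 reached 1697 and 3791 CPM. Tumor 3 of that group, at 380.3 CPM, fell inside the untreated range of 344.8 to 488.2 CPM. Its sum over the antiviral list, 2253 CPM, also lay within the untreated 2079 to 2404 CPM. IgG tumor 1 stood at 2045 CPM of the interferon-γ sum, and IgG tumors 2 and 6 at 310.4 and 415.9 CPM. In iNOS KO tumors after anti-PD-1, 30 of the 32 antiviral genes were lower than without treatment (median -0.46, 0 called). That median was close to the one of all genes given above for this comparison. Of the 14 interferon-γ genes 1 was called, Psmb9 of the immunoproteasome, which fell by 1.86 (adjusted p = 0.0340 from edgeR), where 0.0422% of all genes were called lower. No test compared these lists with the members.

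Within groups the members varied together. The deviations of the tumors from their group mean, on the log2 scale, correlated between pairs of members with r from 0.44 to 0.98 over the 30 tumors of the first experiment (median 0.86 over 45 pairs) and from 0.03 to 0.94 over the 18 tumors of the second (median 0.60). Both genes of a pair come from the same libraries and share their depth and composition. Mx1, Oasl1 and Oasl2 were closer to each other (Mx1 and Oasl2 0.92, Oasl1 and Oasl2 0.87, Mx1 and Oasl1 0.80 in the first experiment) than Mx1 was to Isg15 (0.44) or Usp18 (0.45). In the second experiment Oasl1 and Oasl2 had 0.94, Mx1 and Usp18 had 0.11, and Ifit3b and Isg15 had 0.03. Without the tumor with the highest members the median was 0.84 in the first and 0.58 in the second experiment.

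**Figure D4:**
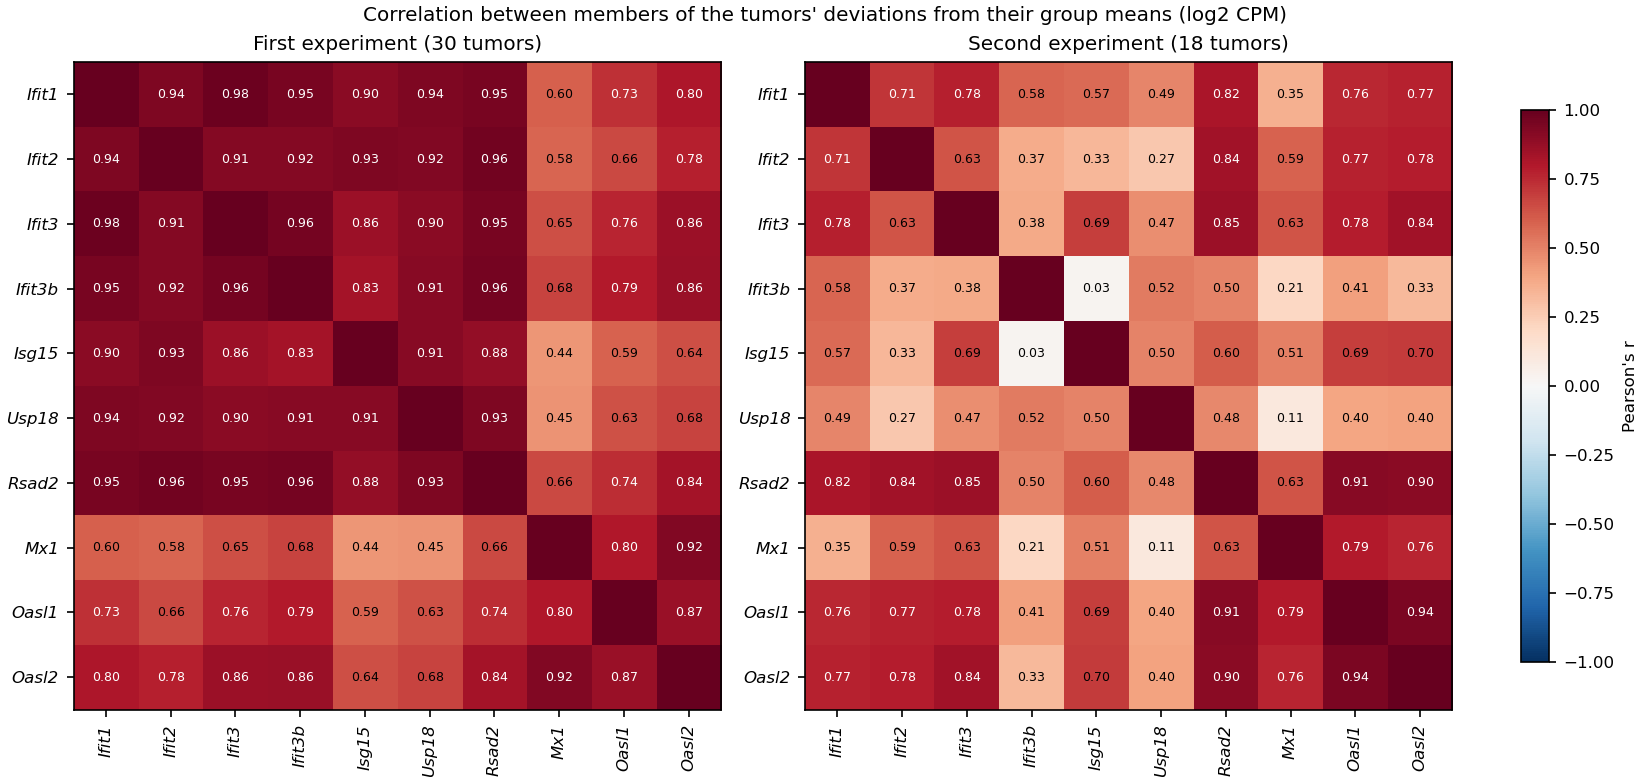
Pearson correlation between the 10 members of the tumors' deviations from their group mean, in 30 tumors of the first and 18 tumors of the second experiment. In the first experiment the lowest values (0.44 and 0.45) are those of Mx1 with Isg15 and Usp18.

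The mean of the 10 members followed the other antiviral genes with r = 0.97 in the first and 0.95 in the second experiment, the genes of receptor and signaling with 0.91 and 0.90, the genes of Isg15 conjugation with 0.94 and 0.82 and the interferon-γ response with 0.84 and 0.66. With leukocyte markers r was 0.49 and 0.66, and with melanoma markers 0.01 and 0.12. Among the members the leukocyte value was 0.69 for Mx1, 0.68 for Oasl2 and 0.63 for Oasl1 in the first experiment, against 0.10 for Isg15 and 0.18 for Usp18. With melanoma markers Mx1 had -0.53, Oasl2 -0.33 and Oasl1 -0.20, and the other 7 had values between 0.09 and 0.33. In the second experiment Oasl1 had 0.79, Oasl2 0.69, Mx1 0.65, Isg15 0.65 and Rsad2 0.63 with leukocyte markers.

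**Figure D5:**
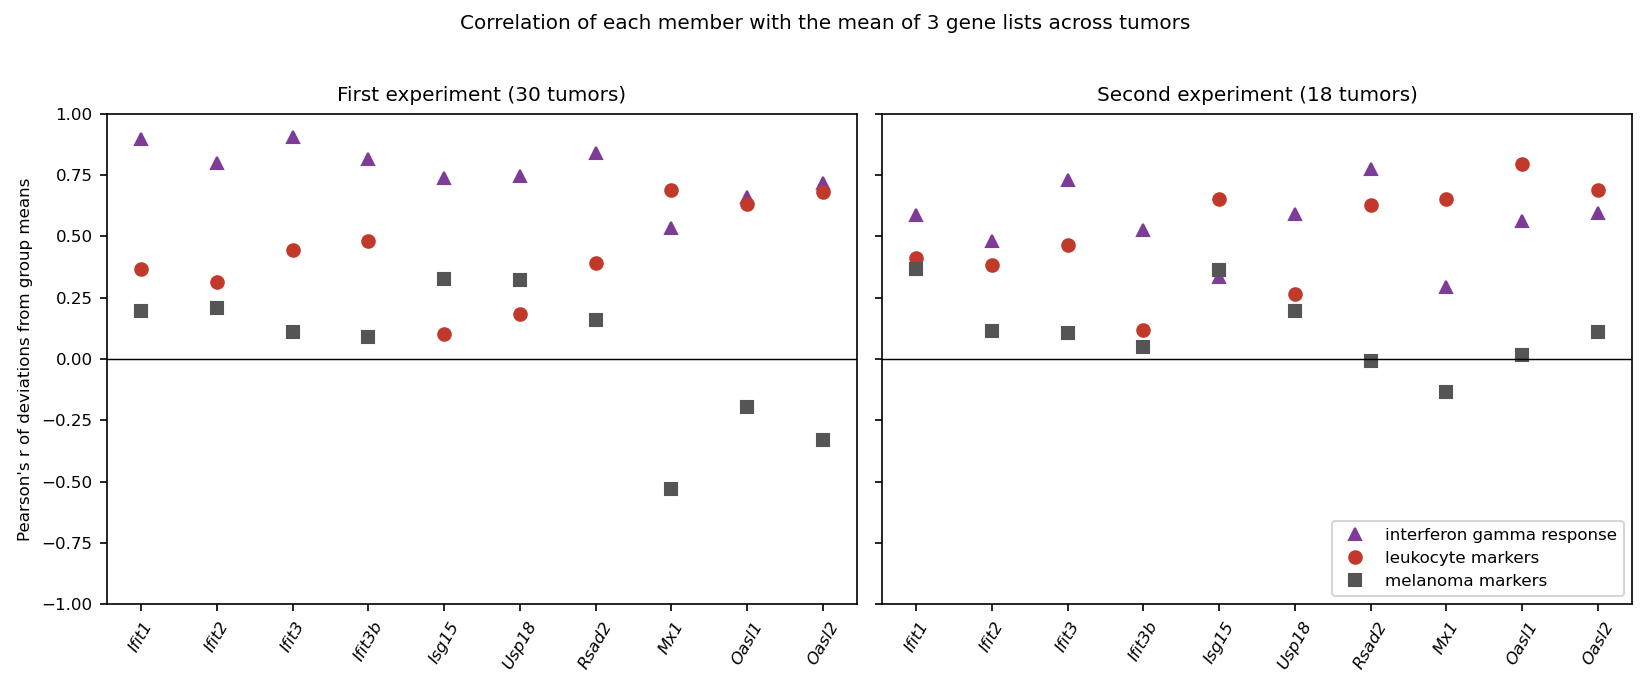
Pearson correlation of each member with the mean log2 level of 3 gene lists (interferon-γ response, leukocyte markers, melanoma markers), over the tumors' deviations from their group mean in 30 and 18 tumors. In the first experiment the leukocyte points run from 0.10 for Isg15 to 0.69 for Mx1, and the melanoma points are below 0 for Mx1, Oasl1 and Oasl2.

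Outside the members, 25446 genes were tested in both experiments, and the 8 whose deviations were most like the mean of the 10, by the lower of the values in the 2 experiments over 30 and 18 tumors, were Trim30a (0.93), Parp9 (0.93), Xaf1 (0.93), Ifih1 (0.92), Dhx58 (0.92), Slfn8 (0.91), Samd9l (0.91) and Zbp1 (0.90). With the tumor that had the highest mean of the members left out of each experiment, the 8 genes were the same, with values from 0.89 to 0.93. All 8 belong to the list of other antiviral genes, so they and the correlation with that list are not separate observations. Ranked by the mean log2 level of the 10 members, groups next to each other overlapped in both experiments. The order ran in the first from IgG on day 1 (5.86 ± 0.90, SD, n = 3) to untreated at 6 hours (4.66 ± 0.29). In the second it ran from untreated iNOS KO (5.29 ± 0.28) through WT IgG (4.92 ± 0.23), iNOS KO IgG (4.80 ± 0.20), untreated WT (4.69 ± 0.33) and WT anti-PD-1 (4.59 ± 0.54) to iNOS KO anti-PD-1 (4.48 ± 0.20), again with n = 3.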

How the data were processed

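RNA of 48 tumors was sequenced from strand-specific libraries. Per the labels and the methods of the study, the authors trimmed reads with cutadapt 1.8.1, aligned them to mm10 with STAR 2.7.7a and quantified GENCODE vM21 genes with RSEM 1.3.0. The deposited values are whole-number counts per gene, not normalized, although the name of the table refers to another counting program. Whether counting used strand is not given in the sources used here. All 55450 gene identifiers matched GENCODE vM21.

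Groups came from the sample titles. The genotype field gave WT for all 48 samples, 9 of which have KO in the title, and the treatment field matched the title in 14. The titles do not name the gene, and that the KO is of iNOS came from the study. The titles of the 6-hour groups read D0, and a figure legend of the study names 6 hours after treatment. The time of the second experiment, day 7, came from a figure legend of the study. The study describes its sequenced tumors at 6 hours and on day 7 as 1 per animal, from 3 animals a group. For 0 hours, day 1 and day 3 the sources used here do not say so, and p-values there measure the spread between these samples. No pair of libraries within a group was a copy of another, since the chi-square per gene was at least 14.5.

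The quasi-likelihood test of edgeR 4.0.16 (R 4.3.3) was fitted to the 2 experiments separately, with 1 coefficient per group, TMM normalization and filterByExpr with a minimum count of 10, which leaves 20 and 12 residual degrees of freedom. Adjustment of p-values ran over all genes tested, by the method of Benjamini and Hochberg with a threshold of 0.05, and the standard error is the log2 fold change divided by the square root of F. Levels are counts per 1000000 (CPM) on the TMM-adjusted total, and log2 levels carry a pseudocount of 0.5. A count of 0 allows up to 3 counts, 0.0688 to 0.105 CPM in the first and 0.0763 to 0.197 CPM in the second experiment, and this limit covers counting error only. A pair of groups does not overlap when every tumor of one is above every tumor of the other.

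In each comparison the member with the smallest p-value and every member called are given with their statistics, and 8 further genes are those most like the mean of the members in both experiments. The members and the gene lists were chosen with earlier results of these data known. The interferon-γ list, the other antiviral list and the marker lists serve as descriptions. The values of 1 gene of the signaling list are not reported here. Motifs and shared transcript stretches were counted with Python 3.11.15, and the code of the fit was tested on simulated data. Alternatives were DESeq2 1.42.0, its size factors in edgeR, no filter, the replicate number as a block, only the groups compared, a covariate of receptor counts and leaving out each tumor in turn. Leaving out together the 3 libraries with high receptor counts was chosen after seeing the data.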

Additional observations from a re-analysis of the deposited data

Results flagged for a closer look

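In the second experiment an interaction chosen after seeing the data was tested across all genes with edgeR. It took the signed log2 difference of iNOS KO from WT without treatment and subtracted that after anti-PD-1. The result was called above 0 for 4 members, with 1.41 for Ifit3, 1.08 for Ifit1, 2.04 for Ifit3b and 1.71 for Mx1. For Mx1 the difference after anti-PD-1 was itself negative, at -1.09. Of all genes 19.6% were called in the same direction, and WT anti-PD-1 tumors 3 and 4 and untreated iNOS KO tumor 1, which had high receptor counts, are 3 of the 12 tumors in this interaction. Without these 3 tumors 2 of the members were called (0.107% of all genes, higher). With the receptor counts as a covariate 0 members and 0% of all genes were called. With a replicate block 0 members were called, where 4.17% of all genes were called higher. No group has more than 3 tumors, so no single tumor was tested as standing apart from its group.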

How the results depend on the processing

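Of 760 counts of members called under an alternative, 717 were as reported. Without the filter on low counts 3 members were called higher at 6 hours after anti-PD-1 against untreated tumors (0.152% of all genes). On day 7 this setting called 3 higher in untreated iNOS KO against WT (2.21% of all genes) and 1 higher in WT IgG against untreated (1.15%). It called 1 lower in iNOS KO against WT after anti-PD-1 (5.17% of all genes) and 1 after IgG (0.418%). Lower were also 2 in WT anti-PD-1 against IgG (0.925%). In iNOS KO against untreated it called 6 lower after anti-PD-1 (2.47%) and 2 after IgG (1.93%). DESeq2 called 3 higher in untreated iNOS KO against WT (3.84% of all genes it gave an adjusted p). It called 5 lower (3.14%) and 4 lower (2.89%) in iNOS KO mice after anti-PD-1 and IgG. In iNOS KO against WT after anti-PD-1 it called 1 lower (10.7%). Its size factors in edgeR called 2 higher in untreated iNOS KO against WT (0.788% of all genes) and, in iNOS KO after anti-PD-1, 2 lower (0.094%). They moved the median of all genes by over 0.1 in 4 comparisons, to -1.02 in iNOS KO against WT after anti-PD-1, to 0.79 and 1.08 in WT anti-PD-1 against IgG and untreated, and to 1.53 in the added interaction.

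Same-numbered tumors of different groups did not deviate together (median r of -0.027 over 65 pairs and -0.019 over 36 pairs), so the numbers do not pair them. With the number as a replicate block 0 members were called in untreated iNOS KO against WT (0.467% of all genes, higher). In the added interaction 0 were called (4.17% of all genes, higher), and no other count of members called changed.

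With only the groups compared, 3 were called higher in untreated iNOS KO against WT (1.19% of all genes). In iNOS KO IgG against untreated 1 was called lower (1.54%), and in the added interaction 0 were called (0.0815%, higher). The covariate of receptor counts called 1 lower in iNOS KO anti-PD-1 against untreated (0.00649% of all genes) and 0 in the added interaction (0%). Its medians were 0.79 (untreated iNOS KO against WT), -0.19 (the same after IgG), 0.35 (WT anti-PD-1 against untreated), -1.24 (iNOS KO anti-PD-1 against untreated) and 1.55 (added interaction). Without the 3 libraries with high receptor counts the calls were 3 higher in untreated iNOS KO against WT (1.16% of all genes). In iNOS KO they were 4 lower after anti-PD-1 (0.418%) and 3 lower after IgG (0.859%). The medians were then -0.58 in iNOS KO against WT after anti-PD-1, 0.31 and 0.35 in WT anti-PD-1 against IgG and untreated, -0.70 in the interaction of genotype with anti-PD-1 against IgG, and 1.43 in the added one.

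With each tumor left out in turn, the median of day 1 IgG against untreated ran from 0.23 to 1.33. The median of the members took either sign in 14 of 29 comparisons. Beside those described with their results these are untreated day 1 against 0 hours (-0.35 to 0.16), the interaction of genotype with anti-PD-1 against IgG (-0.30 to 0.08) and, on day 7, iNOS KO against WT after IgG (-0.11 to 0.07) and WT IgG against untreated (-0.20 to 0.08). Calls ran from 0 to 1 higher in untreated iNOS KO against WT and 0 to 1 higher after anti-PD-1, 0 to 2 and 0 to 3 lower in WT anti-PD-1 against IgG and untreated (each from leaving out WT anti-PD-1 tumor 2), 0 to 2 lower in iNOS KO anti-PD-1 (1 without untreated tumor 2, 2 without anti-PD-1 tumor 3) and 0 to 4 in the added interaction. Directions turned for Ifit2 in day 1 anti-PD-1 against IgG (-0.99999 to 0.11, positive without IgG tumor 4), Oasl1 in day 3 anti-PD-1 against untreated (-0.025 to 0.48, negative without anti-PD-1 tumor 4) and in untreated day 1 against 0 hours (-0.23 to 0.49, negative without day 1 tumor 1), Ifit3b from 6 hours to day 3 after anti-PD-1 (-1.15 to 0.13, positive without 6-hour tumor 5), and Rsad2 in the interaction of 6 hours with day 3 (-0.23 to 1.003, negative without tumor 3 of anti-PD-1 at 6 hours, with -0.07, or at day 3). Except where fewer tumors or more tested genes make the change, the cause was not tested.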
